A study of Mus musculus with 6 samples.

Results

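The genes described here are 50 lineage transcription factor genes, a class whose promoters are known to be bivalent in embryonic stem cells, out of 21853 protein-coding genes. They were taken by name from the Pax, Gata, Tbx, Fox, Nkx, Lhx, Dlx, Sox and smaller families, and all 50 were found in the mouse annotation. DPPA4 peaks were found at the promoters of 47 of them (94%) in EHMT2-depleted mESCs, against 70% of all protein-coding genes. In EHMT2-depleted 2CLCs they were found at 40 (80%), against 61.9%. Among genes that were CpG-rich near the start, the listed genes had lower shares than all such genes (92.9% against 98.1%, and 76.2% against 92.5%). Peaks of the listed genes were often several to a gene and spread upstream and downstream of the start. The median strength of their strongest promoter peak was lower than over all occupied promoters of the genome.

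The cells were the line EHMT2-dTAG-mcherry-mervl-gfp, an ESC line of BL6/129 hybrid strain grown in FBS/LIF medium, in which the histone methyltransferase EHMT2 carries a tag that lets dTAG trigger its degradation. Every sample, IgG controls included, had received dTAG for 72 h, so no group with intact EHMT2 enters these comparisons. Live cells were sorted by GFP, which here is driven by the MERVL promoter. GFP-negative cells stand for mESCs and GFP-positive cells for 2CLCs, cells that express genes of the 2-cell embryo, so the states are defined by 1 retroviral reporter in 1 line. The 6 CUT&RUN samples were 2 with anti-DPPA4 in GFP-negative cells, 2 with anti-DPPA4 in GFP-positive cells, 1 with IgG in GFP-negative cells and 1 with IgG in bulk cells. CUT&RUN directs a nuclease to the chromatin a protein occupies and sequences the fragments it releases. The data used were 2 peak lists, 1 per cell state, each pooled by the authors over its 2 libraries. The spread between replicates is thus unknown for every value, and no difference was tested.

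On chromosomes 1 to 19, X and Y the GFP-negative list held 83602 peaks with a median width of 643 bp, and the GFP-positive list held 54642 peaks with a median width of 825 bp. The reads behind each list are unknown, and a deeper library gives more peaks from the same occupancy. Peak lists hold no expression, so the cell states could be compared with their markers only as occupancy. The promoters of Zscan4c, Zscan4d, Zscan4e and Zscan4f, genes of the 2-cell embryo, had 0 peaks in the GFP-negative list, compared with 1 peak each in the GFP-positive list. Zscan4b had none in either list, and the pluripotency genes Pou5f1, Nanog and Sox2 had peaks in both. The GFP-positive peaks covered 399 bp (Zscan4c), 755 bp (Zscan4d), 121 bp (Zscan4e) and 490 bp (Zscan4f) of the promoter windows. Reads with several matches were kept at 1 randomly chosen position, so peaks at genes of the Zscan4 cluster may not be separate observations.

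Bivalent promoters carry the active mark H3K4me3 and the Polycomb mark H3K27me3 together. In mESCs this state is typical of CpG-rich promoters of genes that specify lineages, which are nearly silent there and are switched on or off for good when cells differentiate. DPPA4 and its partner DPPA2 are small DNA-binding proteins with a SAP domain that are known to help keep both marks at a set of such promoters. No histone mark was measured in these lists, so the bivalent state of the listed genes was not checked.

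Sequences at or near the promoters are shown first, since CpG-rich promoters were more frequent among the listed genes, which were not chosen by sequence, than among all protein-coding genes. Each is read 5′ to 3′ on the strand of its gene from the mm10 reference (RefSeq GRCm38.p6), lies outside annotated exons, and has every CpG in capitals. The first 5 are the 201 bp around the summit of the strongest GFP-negative promoter peak. They run from the CpG-dense summits of Foxf1 (chr8:121083704-121083904, plus strand, 27 CpG) and Six2 (chr17:85688352-85688552, minus strand, 20 CpG) through that of Gata5 (chr2:180334808-180335008, minus strand, 16 CpG), which lacked a GFP-positive promoter peak, to the CpG-poor summits of Tbx2 (chr11:85829682-85829882, plus strand, 7 CpG) and Lhx5 (chr5:120428975-120429175, plus strand, 3 CpG). With upstream counted as negative, the Tbx2 and Lhx5 summits lay at -2769 and -2624 bp from a start. Both stretches were thus beyond the 2.5 kb counted as promoter, which only the edges of these peaks reached. The last sequence is the 200 bp directly upstream of Nkx2-1 (chr12:56536909-56537108, minus strand, 7 CpG), which had no promoter peak in either list.
Foxf1: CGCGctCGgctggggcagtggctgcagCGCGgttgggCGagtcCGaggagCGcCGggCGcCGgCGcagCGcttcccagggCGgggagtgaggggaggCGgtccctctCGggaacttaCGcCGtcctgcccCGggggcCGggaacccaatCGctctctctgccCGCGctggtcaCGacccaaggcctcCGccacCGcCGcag
Six2: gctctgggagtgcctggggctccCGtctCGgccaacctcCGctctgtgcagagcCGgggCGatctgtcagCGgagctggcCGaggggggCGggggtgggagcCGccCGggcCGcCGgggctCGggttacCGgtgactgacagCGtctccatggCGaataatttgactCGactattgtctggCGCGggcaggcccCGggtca
Gata5: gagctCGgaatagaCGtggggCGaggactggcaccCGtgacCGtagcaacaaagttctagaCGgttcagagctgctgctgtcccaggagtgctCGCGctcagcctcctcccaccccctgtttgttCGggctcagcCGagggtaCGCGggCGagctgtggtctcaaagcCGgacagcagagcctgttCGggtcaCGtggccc
Tbx2: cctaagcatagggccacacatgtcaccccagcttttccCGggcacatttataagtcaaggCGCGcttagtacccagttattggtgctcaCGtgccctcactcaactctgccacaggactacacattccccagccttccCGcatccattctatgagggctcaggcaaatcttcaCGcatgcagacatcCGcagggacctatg
Lhx5: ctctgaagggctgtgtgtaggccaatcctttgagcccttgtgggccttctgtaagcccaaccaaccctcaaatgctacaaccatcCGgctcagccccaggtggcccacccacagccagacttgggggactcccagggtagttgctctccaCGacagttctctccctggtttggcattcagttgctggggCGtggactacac
Nkx2-1: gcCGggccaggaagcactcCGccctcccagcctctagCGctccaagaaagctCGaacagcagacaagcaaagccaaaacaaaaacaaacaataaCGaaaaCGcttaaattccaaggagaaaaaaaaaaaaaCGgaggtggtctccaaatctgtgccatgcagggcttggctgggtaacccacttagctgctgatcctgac

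A promoter was called occupied when a peak shared at least 1 bp with a window that began 2.5 kb upstream of any transcript start of GENCODE vM21 and ended 0.5 kb downstream of it. In the GFP-negative list 47 of the 50 listed genes (94%) were occupied, against 70% of all protein-coding genes. In the GFP-positive list 40 (80%) were occupied, against 61.9%. Both shares lay above those of all genes, and the windows of the listed genes were not longer, with a median of 3800.5 bp against 5868 bp.

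Peaks in both lists were found at 39 of the listed genes, against 59.9% of all protein-coding genes. A further 8 had a peak in the GFP-negative list alone, against 10.1% of all genes. A single gene, Hand2, had a peak in the GFP-positive list alone, against 1.99%, and Nkx2-1 and Six3 had none in either list, against 28.0%. Of the listed genes occupied in the GFP-negative list, 83.0% were also occupied in the GFP-positive list, close to the 85.6% of all protein-coding genes. Among genes occupied in the GFP-negative list, the 8 without a GFP-positive peak thus made up a share near that of genes in general. Other backgrounds differed. The share also occupied in the GFP-positive list was 93.6% for genes CpG-rich within 500 bp of the start. It was 79.8% for other genes of the same families and 64.7% for Hox genes.

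**Figure D1:**
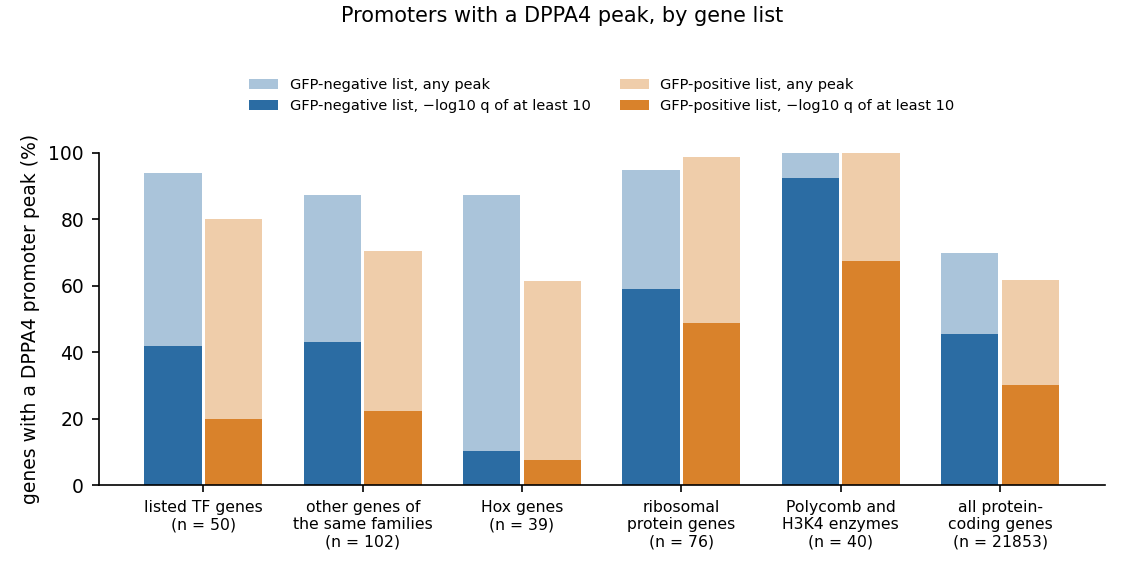
Share of genes with a DPPA4 promoter peak (y axis, %) for the listed transcription factor genes, the comparison gene lists and all protein-coding genes; pale bars count any peak and dark bars only those with −log10 q of at least 10, in blue for the GFP-negative and orange for the GFP-positive list. The listed genes stand above all protein-coding genes when any peak counts (94% and 80%) and not above them when only strong peaks count (42% and 20%).

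The order changed with the strength of the peaks counted. The −log10 q is the authors' significance of a peak after correction for multiple testing, and was read here only within a list. With a value of at least 5, 35 listed genes (70%) were occupied in the GFP-negative list, against 58.3% of all genes, and 17 (34%) in the GFP-positive list, against 45.0%. With a value of at least 10, 21 (42%) were occupied in the GFP-negative list, against 45.6%, and 10 (20%) in the GFP-positive list, against 30.1%. Within each list, the listed genes therefore started above all genes and passed below them. The values at which they did so are not comparable between the lists. With a value of at least 20, 9 listed genes (18%) were left in the GFP-negative list against 29.0% of all genes.

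Among occupied promoters, the strongest peak of the listed genes had a median −log10 q of 8.66 in the GFP-negative list (quartiles 4.98 and 16.9), against 15.7 for all protein-coding genes. In the GFP-positive list the median was 4.18 (quartiles 2.66 and 8.82), against 9.59. The authors' fold enrichment at the summit showed the same order, with medians of 6.54 against 8.59 in the GFP-negative list, compared with 4.57 against 6.56 in the GFP-positive list. The medians of the listed genes were thus lower in either list, although their upper GFP-negative quartile of 16.9 lay above the median of all genes.

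**Figure D2:**
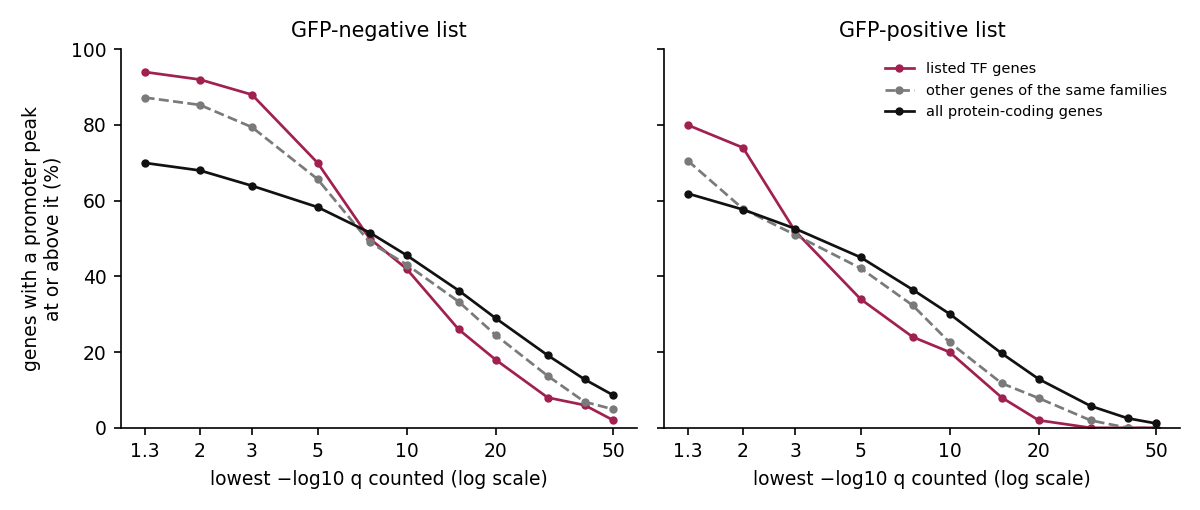
Share of genes with a promoter peak (y axis, %) as the lowest −log10 q counted is raised (x axis, log scale), for the listed genes (red), other genes of the same families (grey) and all protein-coding genes (black) in each list. The red line starts highest in both panels, at 94% and 80%, and ends below the black line.

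CpG content was set beside these shares because, within promoter windows of all protein-coding genes, DPPA4 peaks lay on sequence denser in CpG than the rest. The CpG content of peaks outside promoter windows was not measured. Within 500 bp of the start, 42 of the listed genes (84%) were CpG-rich, that is, had a GC content of at least 50% and a ratio of observed to expected CpG of at least 0.6, against 46.0% of all protein-coding genes. Ribosomal protein genes (89.5%) and genes of Polycomb and H3K4 methyltransferase subunits (87.5%) stood higher. Other genes of the same families (67.6%) and Hox genes (64.1%) stood lower. Over the 3 kb of the window at the reference start, 18 of the listed genes (36%) met the same limits, against 9.76% of all protein-coding genes and 45% of the Polycomb and H3K4 methyltransferase genes. The median ratio over that window was 0.533 against 0.378, from 0.161 at Pax8 to 0.814 at Foxf1.

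Set beside genes with the same property, the shares of occupied listed genes were lower in all comparisons but 1. Of the 42 listed genes that were CpG-rich within 500 bp of the start, 39 (92.9%) had a GFP-negative peak, against 98.1% of the 10049 protein-coding genes with that property, and 32 (76.2%) had a GFP-positive peak, against 92.5%. With a −log10 q of at least 10 the counts were 16 (38.1%) against 73.2% in the GFP-negative list, compared with 8 (19%) against 51.9% in the GFP-positive list. Of the 18 that were CpG-rich over the whole window, all 18 had a GFP-negative peak, against 99.3% of 2133 genes, which is the exception, and 16 had a GFP-positive peak, against 96.3%. GFP-negative peaks with a −log10 q of at least 10 were at 8 of these 18, against 78.9%, and such GFP-positive peaks at 4, against 62.6%. These differences in share rest on few listed genes and were not tested.

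The bases within the windows showed where the CpGs lay. Inside GFP-negative peaks the listed genes had 5.92 CpG per 100 bp, and 2.68 outside them, against 5.89 and 1.10 for all protein-coding genes. In the GFP-positive list the values were 6.42 inside and 2.97 outside, against 6.0 and 1.23. Peaks of the listed genes thus had a CpG density near that of all promoter peaks. Bases outside peaks held over 2 times the density found for all protein-coding genes. Windows without a peak were counted in full among the bases outside. Outside GFP-negative peaks, related genes came near the listed genes, with 2.24 in other genes of the same families and 2.69 in Hox genes. Genes CpG-rich over the whole window had 2.08 there. Repeats and low-complexity sequence made up a median of 12.5% of the windows, against 20.8%.

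Of the 5 listed genes with the highest GFP-negative −log10 q, 4 belonged to the group of nervous system and sense organs, and the other was Pax5. Irx3, a homeobox gene of the spinal cord and heart, had the highest GFP-negative value of the listed genes, at 50.2 (fold enrichment 17.8), and 11.5 (6.37) in the GFP-positive list. Sox1, a marker of neural progenitors, had 49.0 (18.6) in the GFP-negative list, compared with 12.5 (7.76) in the GFP-positive list. At both genes the summit lay within 100 bp of a start in either list.

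Pax5, which commits cells to the B lineage and also acts in the midbrain, had a −log10 q of 45.1 (fold enrichment 18.2) in the GFP-negative list. Its GFP-positive value of 27.7 (13.3) was the highest of the listed genes there. Gbx2, which positions the boundary of midbrain and hindbrain, had 34.4 (12.6) and 17.8 (8.54), and Lhx2, needed for eye and cortex, had 29.3 (14.3) and 15.3 (8.34). These 3 genes were among the 5 strongest of both lists.

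The other genes among the 5 strongest of the GFP-positive list were Gata2 and Foxc2. Gata2, a factor of blood stem cells, had a −log10 q of 16.5 (fold enrichment 9.91) in the GFP-positive list and 14.4 (7.13) in the GFP-negative list. Foxc2, which acts in somites, vessels and heart, had 14.6 (7.89) in the GFP-positive list and 17.6 (7.11) in the GFP-negative list. At both genes the 2 values came from different peaks. With upstream counted as negative, the Gata2 summits lay at -4192 bp (GFP-positive) and 266 bp (GFP-negative) from a start. The Foxc2 summits lay at -90 bp (GFP-positive) and -2739 bp (GFP-negative). The GFP-positive summit of Gata2 and the GFP-negative summit of Foxc2 were thus outside the promoter window, which their peaks only overlapped. Gata2, Foxa1, Pax9, Tbx2 and Neurog2 were the 5 of the 39 genes with peaks in both lists whose value was higher in the GFP-positive list, and the other 34 had the higher value in the GFP-negative list. Since q depends on depth, and the depth of neither list is known, this count does not compare occupancy between the cells.

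**Figure D3:**
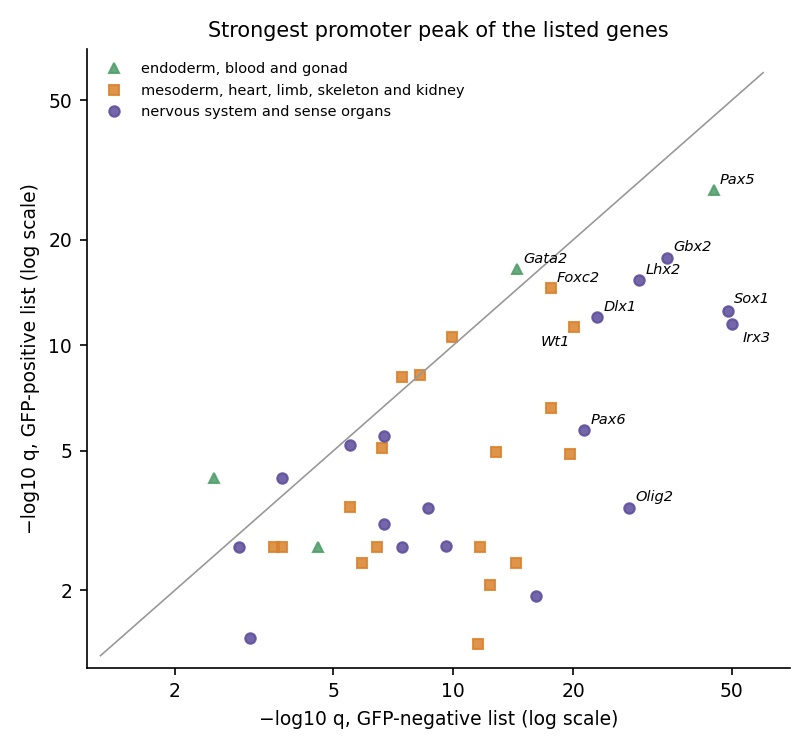
Strongest promoter peak of each of the 39 listed genes with a peak in both lists, as −log10 q in the GFP-negative list (x axis, log scale) set against that in the GFP-positive list (y axis, log scale), with symbols for the group of role and a line of equal values. All but 5 points lie below the line, with Irx3 and Sox1 at the far right and Pax5 at the top.

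Low values recurred in the GFP-positive list. The same −log10 q of 2.66 was the strongest value of 7 listed genes there, namely Pax8, Tbx5, Tbx15, Foxc1, Foxl2, Dlx5 and Isl1. How often this value occurred among all protein-coding genes was not counted. The lowest values were 1.5 at Pax7 among GFP-negative and 1.41 at Foxf1 among GFP-positive values, both just above the lowest value the authors' lists hold, 1.3. Foxf1, a factor of lung and gut mesenchyme, had the lowest GFP-positive value although its peak was 3358 bp wide and covered 89.3% of its window.

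The share of genes with a GFP-positive peak was lowest where the GFP-negative peak was weak, for the listed genes as for all others. Of the 12 listed genes with a GFP-negative −log10 q under 5, 7 (58.3%) also had a GFP-positive peak, against 48.4% of all protein-coding genes of that strength. From 5 to 10 it was 13 of 14 (92.9%) against 78.7%, from 10 to 20 it was 10 of 12 (83.3%) against 93.4%, and from 20 upwards 9 of 9 (100%) against 99.1%. With groups of 9 to 14 genes, 1 gene moves these shares by at least 7 percentage points.

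The 8 genes with a peak in the GFP-negative list alone had −log10 q values from 1.5 to 10.7. Gata5, which acts in heart and endoderm, had the strongest of them, a peak of 2090 bp at chr2:180333666-180335755 with a −log10 q of 10.7 and a fold enrichment of 7.16 that covered 1557 bp of its window. Its nearest GFP-positive peak was 13844 bp from its start. Evx1, expressed in spinal interneurons, had a peak of 1884 bp with 10.4 (6.81) that covered 645 bp, but a GFP-positive peak lay 774 bp from a start, just beyond its window. The 2 strongest of these genes thus differed in whether the GFP-positive list was empty around them.

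Otp, a gene of hypothalamic neurons, had 3 GFP-negative peaks that covered 1221 bp in all, with a widest of 813 bp and, at another of them, a highest −log10 q of 5.36 (fold enrichment 5.4), and a GFP-positive peak 626 bp from a start, just beyond its window. Lhx5, a gene of the forebrain, had a widest peak of 1829 bp, a −log10 q of 4.61 (5.07) at another peak farther upstream, which was its strongest, and 1326 covered bp, with a GFP-positive peak at 5864 bp. Sox9, which drives cartilage and testis formation, had a peak of 1938 bp, 4.57 (4.98) and 1545 covered bp, and no GFP-positive peak nearer than 28839 bp. Sox9 was the most isolated of the 8 genes in the GFP-positive list.

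Nkx2-2, which patterns the ventral neural tube and pancreas, had a widest peak of 1266 bp with a −log10 q of 3.93 (fold enrichment 4.74) and 853 covered bp, and its nearest GFP-positive peak was 14807 bp from a start. Pax3, a gene of neural crest and muscle precursors, had a single peak of 500 bp, 3.30 (4.27), with a GFP-positive peak at 6979 bp. Pax7, its paralog in muscle stem cells, had a peak of 1275 bp with the lowest GFP-negative value of the listed genes, 1.5 (2.81), and 1188 covered bp, with a GFP-positive peak at 9744 bp. In all, 5 of the 8 genes had a GFP-positive peak within 10 kb of the reference start.

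Hand2, which acts in heart and limb bud, was the reverse case. It had a GFP-positive peak of 653 bp at chr8:57320995-57321647 with a −log10 q of 3.4 and a fold enrichment of 4.0, which covered 489 bp of its window. Its nearest GFP-negative peak was 2229 bp from its start, and 5 GFP-negative peaks lay within 10 kb of its start against 3 GFP-positive ones. Nkx2-1, needed for thyroid, lung and ventral forebrain, had its nearest GFP-negative peak at 4097 bp and its nearest GFP-positive peak at 4139 bp. Six3, needed for forebrain and eye, had them at 2507 and 3063 bp. These genes were thus not far from DPPA4 peaks, and with windows of 5 kb on either side of each start 0 genes lacked a peak in both lists.

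Peak width was not uniform. The widest promoter peak of a listed gene had a median of 1547 bp in the GFP-negative list (quartiles 1082.5 and 2071), while the GFP-positive median was 1497.5 bp (quartiles 767.75 and 2358.5), against 1318 and 1413 bp for all protein-coding genes. Peaks of at least 2 kb were at 15 listed genes (30%) in the GFP-negative list, against 14.4% of all genes, and at 13 (26%) in the GFP-positive list, against 15.2%. Other genes of the same families stood close to the listed genes, at 28.4% and 23.5%, with median widths of 1504 and 1607 bp. Genes CpG-rich over the whole window stood higher, at 41.1% and 45.8%. Wide peaks were thus not particular to the listed genes. Of the 39 genes with peaks in both lists, the GFP-negative peak was the wider at 23 and the GFP-positive peak at 16.

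Tbx1, a gene of the pharyngeal arches and heart, had the widest promoter peak of the listed genes in both lists. Its GFP-negative peak of 5174 bp lay at chr16:18587108-18592281 with a −log10 q of 8.27, and its GFP-positive peak of 4553 bp at chr16:18585646-18590198 with 8.24. Together with smaller peaks they covered 72.8% and 64.9% of its window. Tbx1 was thus covered over most of its window in either list, by peaks near the median strength of the listed genes in the GFP-negative list.

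The next widest GFP-negative peaks were those of Pax2, Pax6, Sox1, Foxf1, Dlx2, Pax8 and Gata2. Pax2, a gene of kidney, optic stalk and midbrain, had a widest peak of 3486 bp (−log10 q 8.66, fold enrichment 6.58) in the GFP-negative list. In the GFP-positive list its widest peak had 1640 bp, and its strongest, another one, had a −log10 q of 3.44 (4.04). Pax6, the eye and forebrain gene, had widest peaks of 3476 and 1607 bp, while its strongest peaks were other ones, with a −log10 q of 21.3 (fold enrichment 11.7) among GFP-negative peaks and 5.72 (5.71) among GFP-positive ones. At both genes the widest GFP-positive peak was less than 0.5 times as wide as the widest GFP-negative one.

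Sox1 had widest peaks of 3457 and 3179 bp, and Foxf1 of 3430 bp (−log10 q 11.5) and 3358 bp, so both kept their width. Dlx2, a gene of cortical interneurons, had 3178 bp (6.70, fold enrichment 5.52) in the GFP-negative list and 1594 bp (5.50, 5.29) in the GFP-positive list. Pax8, a thyroid and kidney gene, had 3047 bp (3.55) and 1849 bp (2.66), and Gata2 had 2857 and 2851 bp. A wide peak was not always a strong one, since Pax8 combined 3047 bp with a −log10 q of 3.55, while Pax5 combined 1882 bp with 45.1. The widest promoter peak of a gene was smallest at Evx2 (312 bp) in the GFP-negative list, and at Foxc1 (306 bp) among GFP-positive ones.

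Over whole windows, 41 of the listed genes (82%) had more covered bases in the GFP-negative list, against 42.4% of all protein-coding genes. More in the GFP-positive list were at 7 (14%), against 29.3%, and Nkx2-1 and Six3 had none. The shares of all genes also count 6195 genes with equal coverage, which include those without a peak. Among genes CpG-rich within 500 bp of the start the shares were 52.6% and 45.6%. Other genes of the same families stood at 64.7% and 21.6%. The median number of covered bases was 1292.5 in the GFP-negative list, compared with 938.5 in the GFP-positive list, against 937 and 788 for all genes. The difference, GFP-negative minus GFP-positive, had a median of 361 bp against 0 bp for all genes and 242 bp for other genes of the same families. The count depended on the number of peaks in the lists. When each list was limited to its 50000 strongest peaks, 29 genes had more covered bases in the GFP-negative list, compared with 17 in the GFP-positive list, against 35.5% and 32.3% of all genes.

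The largest differences were at Pax6, Gata2, Pax2, Tbx5 and Gata5. Pax6 had 9705 covered bp from 9 peaks in the GFP-negative list, compared with 3816 bp from 3 peaks in the GFP-positive list, a difference of 5889 bp, over a window that its 24 transcript starts extend to 22424 bp. Gata2 had 8633 bp from 7 peaks and 4721 bp from 5 peaks, a difference of 3912 bp. Pax2 had 4929 and 1823 bp, a difference of 3106 bp. All 3 genes stayed above the median of 938.5 bp in the GFP-positive list.

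Tbx5, a gene of forelimb and heart, had 2947 covered bp in the GFP-negative list, where its strongest peak had a −log10 q of 11.7, and 1135 bp in the GFP-positive list, where it had 2.66, a difference of 1812 bp. Gata5 followed with 1557 bp against none. At the other end, Six2, which maintains nephron progenitors, had 1287 bp in the GFP-negative list, compared with 1951 bp in the GFP-positive list, a difference of -664 bp. Its −log10 q was 19.7 in the former list and 4.90 in the latter, values that are not scaled between the lists. Lhx9, a gene of gonad, limb and spinal cord, had 542 and 1176 bp (-634 bp), and Pax1, a gene of vertebral column and thymus, had 1420 and 1926 bp (-506 bp).

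Hand2 (-489 bp) and Wt1, the kidney and gonad gene, with 2927 and 3226 bp (-299 bp), completed the 5 smallest. Tbx2, which acts in heart and limb, was covered over more bases in the GFP-positive list by 167 bp, and Evx2 by 18 bp. The difference was near 0 at Irx3 (2024 and 2022 bp), Foxf1 (2695 and 2679 bp), Nkx2-5, the cardiac homeobox gene (2786 and 2753 bp), and Dlx1, the partner of Dlx2 in interneurons (3250 and 3202 bp). At these genes the lists marked nearly the same extent of sequence.

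**Figure D4:**
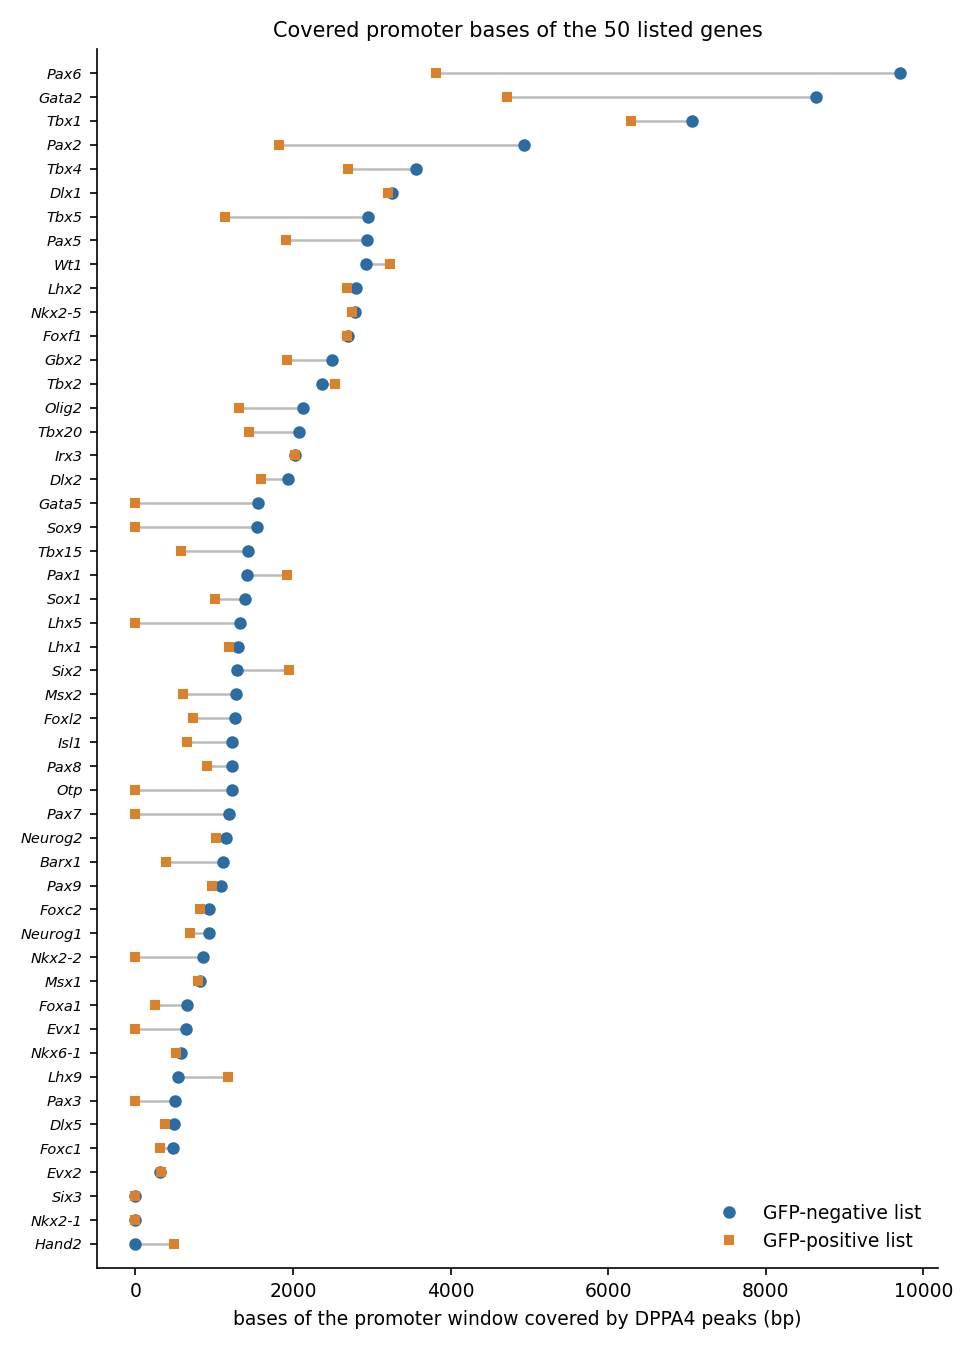
Bases of the promoter window covered by DPPA4 peaks (x axis, bp) for each of the 50 listed genes (y axis), in the GFP-negative list (blue circles) and the GFP-positive list (orange squares), joined by a grey line and ordered by the GFP-negative value. Pax6, Gata2 and Pax2 show the longest lines, 7 genes have the square to the right of the circle, and 8 genes have the square at 0 and the circle above it.

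By role, the 24 genes of nervous system and sense organs had a GFP-negative promoter peak at 23 and a GFP-positive peak at 17. Their median covered bases were 1225.5 and 848, with more in the GFP-negative list at 21 genes and more in the GFP-positive list at 2. Of the genes of this group not described above, Olig2, of oligodendrocytes and motor neurons, had 2121 and 1315 covered bp, and the proneural genes Neurog1 and Neurog2 had 930 and 689 bp and 1145 and 1025 bp. Lhx1, of the head organizer and kidney, had 1298 and 1193 bp, Isl1, of motor neurons, had 1230 and 657 bp, Nkx6-1, of the ventral neural tube and beta cells, had 582 and 509 bp, and Dlx5, of the skull and forebrain, had 488 and 370 bp. Of the 8 genes with a peak in the GFP-negative list alone, 6 belonged to this group.

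The 21 genes of mesoderm, heart, limb, skeleton and kidney had a GFP-negative peak at 20 and a GFP-positive peak at 19, with medians of 1424 and 968 covered bp. In this group 16 genes had more covered bases in the GFP-negative list, compared with 5 in the GFP-positive list. Tbx4, of the hindlimb, had 3565 and 2699 bp, Tbx20, of the heart, had 2079 and 1442 bp, and Tbx15, of the skeleton, had 1424 and 575 bp. The limb and tooth genes Msx1, Msx2 and Barx1 had 824 and 794 bp, 1277 and 597 bp, and 1107 and 388 bp. Pax9, of teeth and thymus, had 1084 and 968 bp, Foxc2 had 938 and 824 bp, and Foxc1, its paralog, had 482 and 306 bp.

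The 5 genes of endoderm, blood and gonad had peaks at 4 genes in either list, with Nkx2-1 as the gene without, and medians of 1269 and 728 covered bp. Pax5 had 2933 and 1909 bp, Foxl2, of the ovary, had 1269 and 728 bp, and Foxa1, which opens chromatin in endoderm, had 649 and 243 bp. All 4 occupied genes had more covered bases in the GFP-negative list. The groups of role are small and were drawn by textbook role, and the differences between them were not tested.

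More than 1 peak in the promoter windows was found at 27 listed genes (54%) in the GFP-negative list, against 27.3% of all protein-coding genes, and at 19 (38%) against 19.2% in the GFP-positive list. Several peaks were not particular to the listed genes. Genes CpG-rich over the whole window stood at 48% and 35.3%, and genes of Polycomb and H3K4 methyltransferase subunits at 55% and 40%. Other genes of the same families stood lower, at 39.2% and 17.6%. Compared with all genes, the peaks of the listed genes also lay farther from the starts. The summit of the strongest GFP-negative peak lay within 500 bp of a start at 30 of 47 genes (63.8%), against 84% of all genes, at a median distance of 266 bp against 95 bp. In the GFP-positive list it was 27 of 40 (67.5%) against 83.1%, at 316 bp against 113 bp. Summits over 2 kb from a start were at Tbx2, Foxc2, Foxl2, Lhx5 and Evx2 in the GFP-negative list and at Gata2, Tbx2, Foxl2 and Evx2 in the GFP-positive list.

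Within 10 kb on either side of the reference start, the listed genes had a median of 4 GFP-negative peaks that covered 3853 bp, against 1 peak and 1371 bp for all protein-coding genes. In the GFP-positive list they had 2 peaks and 2296.5 bp, against 1 peak and 1174 bp. Other genes of the same families had medians of 3 and 1.5 peaks. More peaks in the GFP-negative list were at 39 listed genes and more in the GFP-positive list at 2. That count was not made over all protein-coding genes. It also follows the size of the lists, since the GFP-negative list held 83602 peaks against 54642, so it does not compare occupancy between the cells. The most peaks were 9, at Gata2, Tbx2, Foxf1 and Lhx5 in the GFP-negative list.

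The shares of genes with a peak at a given position differed from those of all genes more at 2.5 kb upstream than at the start. A GFP-negative peak lay over the start at 66% of the listed genes and 59.6% of all genes, and a GFP-positive peak at 54% and 51.4%. At 2.5 kb upstream the shares were 36% against 6.37% in the GFP-negative list, compared with 24% against 5.31% in the GFP-positive list. Other genes of the same families lay in between there, at 16.7% and 9.80%. At 1 kb upstream the listed genes stood at 24% against 14.7% among GFP-negative peaks, and at 12% against 14.6% among GFP-positive ones, and other genes of the same families stood higher than the listed genes, at 34.3% and 23.5%. At 1 kb downstream the listed genes stood at 46% against 22.1% and at 38% against 20.7%. The listed genes thus did not exceed all genes at every position, and stood below them at 1 kb upstream in the GFP-positive list.

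**Figure D5:**
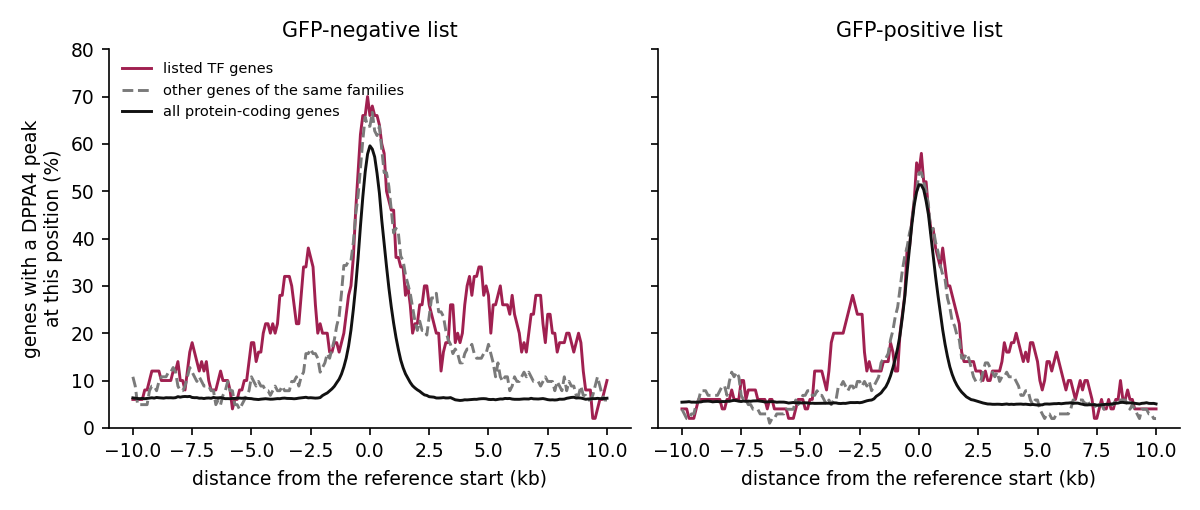
Share of genes with a DPPA4 peak (y axis, %) at each position from 10 kb upstream to 10 kb downstream of the reference start (x axis, kb), for the listed genes (red), other genes of the same families (grey dashes) and all protein-coding genes (black) in each list. All lines peak near the start, and the red line lies above the black one at 2.5 kb upstream (36% against 6.37% in the GFP-negative list) but below it at 1 kb upstream in the GFP-positive list (12% against 14.6%).

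The strongest GFP-negative peak of 17 listed genes also touched the promoter window of another gene, and in 0 cases was that gene protein-coding. Among these neighbours were Wt1os, Dlx1as, Evx1os, Lhx1os and Irx3os on the opposite strand of their namesakes and Fendrr beside Foxf1. Peaks carry no strand, so at these 17 promoters a peak cannot be assigned to either gene. Shared peaks were not counted over all protein-coding genes, so whether these numbers are unusual is unknown.

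Related gene lists were counted in the same way. Of 102 other genes of the same families, 89 (87.3%) were occupied in the GFP-negative list, compared with 72 (70.6%) in the GFP-positive list, with 12 in neither, among them Foxa2, Foxb1, Foxi1, Foxn1, Foxp2, Foxq1, Lhx8, Nkx2-4, Nkx2-6 and Sox3. With a −log10 q of at least 10, 43.1% and 22.5% of them were occupied, close to the 42% and 20% of the listed genes. Of 39 Hox genes, 34 were occupied in the GFP-negative list, compared with 24 in the GFP-positive list, with Hoxb3, Hoxc4 and Hoxc8 in neither, and 10.3% and 7.69% had a peak of that strength.

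Genes of other kinds had other values. Of 76 cytosolic ribosomal protein genes, 72 were occupied in the GFP-negative list, compared with 75 in the GFP-positive list, with Rpl17 in neither, and 58 had more covered bases in the GFP-positive list against 17 in the GFP-negative list. All 40 genes of Polycomb and H3K4 methyltransferase subunits, the enzymes that write the marks of bivalent promoters, were occupied in both lists, with peaks of that strength at 92.5% and 67.5% and median −log10 q values of 26.0 and 13.4. The listed genes, with medians of 8.66 and 4.18, had lower medians than the genes of these enzymes in either list. The excess of covered bases that the listed genes had in the GFP-negative list was not shared by the ribosomal protein genes. It was not particular to the listed genes, since 66 other genes of the same families had more there against 22, and 23 Hox genes against 13.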

How the data were processed

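DPPA4 CUT&RUN was done in 4 libraries, pooled by the authors into 2 peak lists on mm10. Per the study's methods, the authors trimmed reads with bbduk, aligned them with STAR 2.7.10, keeping 1 randomly chosen position for reads with several matches, removed duplicates with Picard 2.26.0 and reads in blacklisted regions, and called peaks with MACS2 2.2.6. The submitters' processing notes also name SAMtools 1.14 and bedtools 2.30.0. In the methods a q-value filter was stated for ChIP-seq only, but both lists held no −log10 q below 1.3, the value of a q of 0.05. The IgG libraries were not used here, and their use in peak calling is not given in the sources used here. The deposited fold enrichment is the authors' ratio of summit signal to background, the deposited −log10 q gives the significance of each peak after the authors' correction for multiple testing, the deposited score is another number from the authors' caller that was not used further, and the deposited summit offset is a signal position in bp. No scaling between the lists is stated, and the reads behind them are unknown.

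Windows ran from 2500 bp upstream to 500 bp downstream of every transcript start of GENCODE vM21, and a peak needed 1 bp of overlap. Of the protein-coding genes, 85 without a protein-coding transcript were left out. Peaks on sequences other than chromosomes 1 to 19, X and Y were left out (1575 GFP-negative, 5 GFP-positive). CpG content was read from RefSeq GRCm38.p6 over the window at 1 reference start per gene, or within 500 bp of it. Groups came from the sample titles. Counts and medians were computed with Python 3.11.15, numpy 2.4.6 and pandas 2.3.3, and the overlap code was tested on simulated data. No test was possible, since each cell state has 1 list. The genes given in full were those without a promoter peak in either or both lists, the 8 with the widest GFP-negative peak, the 5 with the highest −log10 q in each list and the 5 with the largest and the 5 with the smallest difference in covered bases. Members and comparison lists were chosen with earlier results of these data known. Alternatives were other windows, overlap rules, q limits, list sizes and backgrounds.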

Additional observations from a re-analysis of the deposited data

How the results depend on the processing

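No paired analysis was possible because each list pools the replicates of its group, and for the same reason no replicate could be left out. Of 140 values recomputed under alternatives, 100 stayed within 1.5 times the reported value and 40 did not, and the cause was not tested beyond the construction of each alternative. Covered bases are not defined anew for the summit and the 500-bp rules, which gave none. With peaks of −log10 q of at least 5, 17 listed genes were occupied in the GFP-positive list, 17 in both, 18 in the GFP-negative list alone, 0 in the GFP-positive list alone and 15 in neither, and 27 had more covered bases in the GFP-negative list. With at least 10, the counts were 21 in the GFP-negative list, 10 in the GFP-positive list, 9 in both and 28 in neither, the median GFP-positive width was 2475.5 bp, and 17 and 4 genes had more covered bases in the GFP-negative and the GFP-positive list. All protein-coding genes then stood at 45.6% and 30.1%, with more GFP-positive covered bases at 16.5%. With the 10000 strongest peaks of each list, 8 listed genes were occupied in either list, 6 in both, 2 in each list alone and 40 in neither, the median GFP-positive width was 2272.5 bp, and 4 had more covered bases in the GFP-negative list. All protein-coding genes then stood at 28.1% and 26.4%, with more covered bases at 16.2% (GFP-negative) and 16.6% (GFP-positive). With the 50000 strongest peaks, 3 genes were in the GFP-positive list alone and 17 had more covered bases there. A window of 5 kb on either side left 0 genes in the GFP-positive list alone and 0 in neither. Peaks with their summit in the window left 0 and 5, and at least 500 bp of covered window left 0 and 6. A window of 1 kb on either side gave 11 genes with more GFP-positive covered bases. Among genes with CpG-rich windows, 96.3% were occupied in the GFP-positive list and 46.4% had more covered bases there. Among genes CpG-rich within 500 bp of the start, a background chosen after seeing the data, the latter share was 45.6%. No replicate error is known, and unknown depth limits every comparison between the lists.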
